A study of Mus musculus with 4 samples.

Results

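The cells described here are monocytes that carry transcripts of Ace and Adgre4, a pair of genes typical of mouse non-classical monocytes. They were picked from raw UMI counts, where a UMI is a barcode that marks 1 captured transcript. A cell was a member if it held at least 3 UMIs of Ace and Adgre4 together, at least 1 UMI of Csf1r, the receptor for the monocyte growth factor CSF1, at most 4 UMIs of the complement genes C1qa, C1qb and C1qc, at most 9 of Spp1 and Arg1, at most 1 of the proliferation genes Mki67 and Top2a, and none of the T cell genes Cd3e, Cd3d and Cd3g or the B cell gene Cd79a. Cells were first required to show 500 or more genes and no more than 10% of UMIs from mitochondrial genes, which kept 35372, and 1628 of those were members. There were 162 in ctrl, 445 in 2DG, 559 in aPDL1 and 462 in the combination.

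The study made 4 single-cell RNA libraries from mouse tissue labelled lymph node, 1 library per treatment. The ctrl library came from control animals or cells, 2DG from treatment with 2-deoxy-D-glucose (a glucose analogue that blocks glycolysis and disturbs N-glycan assembly), aPDL1 from a treatment so labelled (a name in common use for antibodies that block PD-L1), and 2DG_aPDL1, called the combination here, from both. No strain, genotype, age, dose or time is given in the sample labels; the series' design text speaks of mice both young and aged and its title of ovarian tumours, and neither is tied to a library. Nor is it stated whether the nodes drained a tumour, and nothing says how many animals a library holds. With 1 library per treatment no difference between treatments could be tested, so those are given as values, and every interval on them is 95%, exact, and covers counting error only.

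Non-classical monocytes develop from classical Ly6c-high monocytes under the nuclear receptor Nr4a1, and they crawl along the inner wall of blood vessels through the integrin LFA-1 and the fractalkine receptor Cx3cr1. Ace encodes angiotensin-converting enzyme, a peptidase on the cell surface, and Adgre4 encodes an adhesion receptor of the F4/80 family. In mice they are best known from blood, spleen and the vessels of inflamed or tumour-bearing tissue.

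Ace (ENSMUSG00000020681) lies on the plus strand of chromosome 11, from 105967945 to 105989964 in GRCm38, and Adgre4 (ENSMUSG00000032915) on the plus strand of chromosome 17, from 55749984 to 55853662. The 250 bases before a RefSeq start of each gene (GRCm38.p6, plus strand; for Ace the upstream of 2 windows listed, the other being chr11:105974939-105975188) are shown because both genes choose the cells but start from unlike sequence. Capitals mark TATAA, searched on both strands (a match on each strand can overlap the other), which 22.8% of 32851 such windows hold.
Ace, chr11:105967698-105967947: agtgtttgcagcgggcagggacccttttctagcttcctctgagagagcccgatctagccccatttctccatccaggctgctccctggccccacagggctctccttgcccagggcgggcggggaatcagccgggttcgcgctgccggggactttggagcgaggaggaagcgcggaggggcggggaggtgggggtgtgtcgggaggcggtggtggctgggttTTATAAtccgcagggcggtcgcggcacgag
Adgre4, chr17:55749734-55749983: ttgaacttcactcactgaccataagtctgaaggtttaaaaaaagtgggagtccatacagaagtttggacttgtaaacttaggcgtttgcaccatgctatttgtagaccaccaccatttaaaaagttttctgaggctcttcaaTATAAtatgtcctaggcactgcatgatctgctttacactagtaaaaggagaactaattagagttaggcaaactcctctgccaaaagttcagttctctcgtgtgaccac
The Ace window was 67.2% G and C, with the word nearest its start 29 bases before it. The Adgre4 window was 39.6% G and C, with the word 108 bases before the start. These are descriptions of letters, and no promoter activity was measured.

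The libraries held 9655 barcodes in ctrl, 8701 in 2DG, 9764 in aPDL1 and 9948 in the combination, and between 61859753 and 73885214 UMIs. Median depth over all kept cells was close, from 6150 to 6656 UMIs. Members were deeper in ctrl, at a median of 9935.5 UMIs, than in 2DG (6800), aPDL1 (6333) and the combination (6125.5). The ctrl library also stood apart in neutrophil transcripts: 43.4% of its kept cells held at least 5 UMIs of S100a8, S100a9, Retnlg and Cxcr2, against 2.99% to 4.36% in the others. Between 22 and 30 barcodes were shared by each pair of libraries, and 0 of them were members in both. Scrublet's highest-scoring cells held 15 members in ctrl, 12 in 2DG, 25 in aPDL1 and 24 in the combination; they were kept, and removed as an alternative.

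Members were scarcest in ctrl. They made up 1.78% of kept cells there, with an interval of 1.52 to 2.08. The combination followed at 4.97% (4.54 to 5.43), then 2DG at 5.60% (5.11 to 6.13) and aPDL1 at 6.18% (5.69 to 6.70). The ctrl interval lay below the other three; those of 2DG and aPDL1 overlapped, and that of the combination overlapped the 2DG interval but not the aPDL1 interval. Against Csf1r-positive cells that passed the same exclusions, the shares were 10.6%, 29.1%, 25.7% and 20.5% in ctrl, 2DG, aPDL1 and the combination. Of members and classical monocytes together, members were 54.2% in ctrl, 72.7% under 2DG, 64.5% under aPDL1 and 53.7% in the combination. At 3000 UMIs per cell those shares were 64.6% (53.0 to 75, over 79 cells) in ctrl, 72.9%, 58.5% (54.1 to 62.9) and 49.4% (45.0 to 53.8), so on that base ctrl was not the lowest, and at equal depth its interval overlapped that of each other library.

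The share in ctrl depended on what it was divided by. Leaving neutrophil-marker cells out of the kept cells (an alternative chosen after the data were seen) raised it to 2.63% and left the others at 5.83%, 6.38% and 5.12%. When every cell was thinned to 3000 UMIs, which left out 1998, 1028, 1353 and 1096 shallower cells in ctrl, 2DG, aPDL1 and the combination, 51 members remained in ctrl, or 0.719%, against 3.54%, 3.80% and 3.09%. Ctrl was the lowest on both of these measures. T cells (at least 3 Cd3 UMIs and no Csf1r UMI), which lack both genes, were used as a gauge of free RNA. Of 383, 2587, 2447 and 2576 such T cells 0, 3, 1 and 1 held 3 or more Ace and Adgre4 UMIs, at median depths of 6612, 6275, 5996 and 5775.5 UMIs. At the rule's count of 3, T cells of this gate were thus almost never reached. The gate sets aside T cells with a Csf1r UMI, so it cannot show how often T cells mixed with monocyte RNA reach that count. Of all kept cells with 3 or more Ace and Adgre4 UMIs, 8, 64, 80 and 52 held a Cd3 UMI and were not members.

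**Figure D1:**
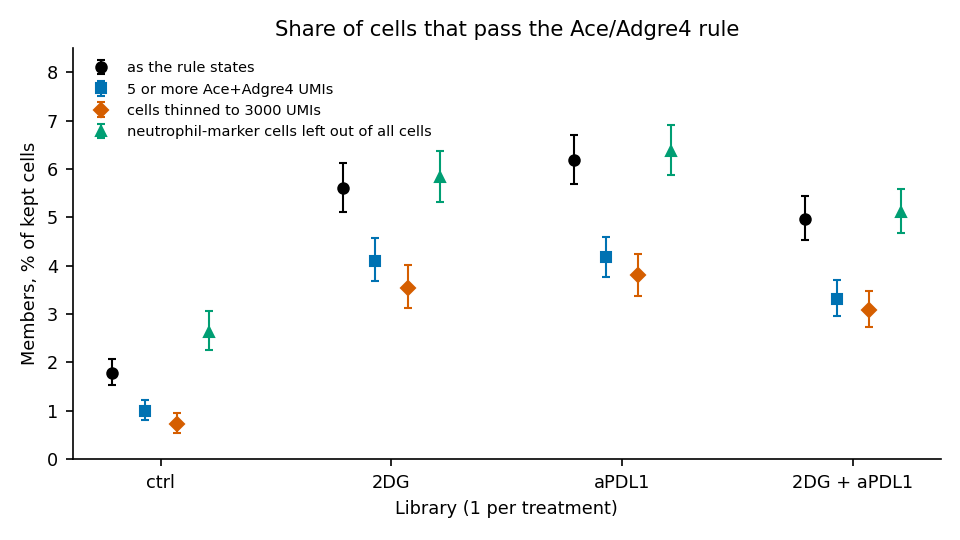
Members as a percent of kept cells in each of the 4 libraries, with exact 95% binomial intervals, for the rule as stated, for 5 or more Ace and Adgre4 UMIs, for cells thinned to 3000 UMIs, and with neutrophil-marker cells left out of the denominator. In all 4 series the ctrl point is the lowest, from 0.719% to 2.63%.

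Of all kept cells with 3 or more Ace and Adgre4 UMIs, members were 60.4% of 268 in ctrl, 74.8% of 595 under 2DG, 76.4% of 732 under aPDL1 and 72.9% of 634 in the combination. The others carried too much C1q, Spp1 or Arg1, a cell cycle or lymphocyte transcript, or no Csf1r. Most members had both genes. Both were detected in 77.2% of members in ctrl, 81.8% under 2DG, 80.5% under aPDL1 and 82.7% in the combination, and the median member held 2 to 2.5 UMIs of Ace and 3 to 4 of Adgre4. Within a library the log levels of the pair had a Pearson correlation between -0.131 and -0.006 over cells, which the minimum on their sum affects and which is given without a test.

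The rule draws a line through a gradient. Pou2f2, which encodes the transcription factor Oct-2, stood in ctrl at 171 CPM (the gene's UMIs per 1000000 UMIs summed over the cells) in cells with 2 UMIs of Ace and Adgre4, at 142 in those with 3, and at 382 in those with 5 or more. In 2DG the values were 284, 295 and 509 CPM, in aPDL1 230, 290 and 532, and in the combination 240, 252 and 536. Cells at 5 or more UMIs thus had the highest Pou2f2 in every library. F13a1, the coagulation factor of classical monocytes, ran the other way in ctrl, from 593 CPM at 2 UMIs to 293 at 3 and 76.3 at 5 or more. It was lower at 3 than at 2 UMIs in the other libraries too, by less: 277 and 180 CPM under 2DG, 392 and 268 under aPDL1, and 333 and 267 in the combination. Cells at exactly 3 UMIs numbered 45, 77, 96 and 83 in ctrl, 2DG, aPDL1 and the combination, and the larger share of such cells in ctrl belongs beside each ctrl value below.

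**Figure D2:**
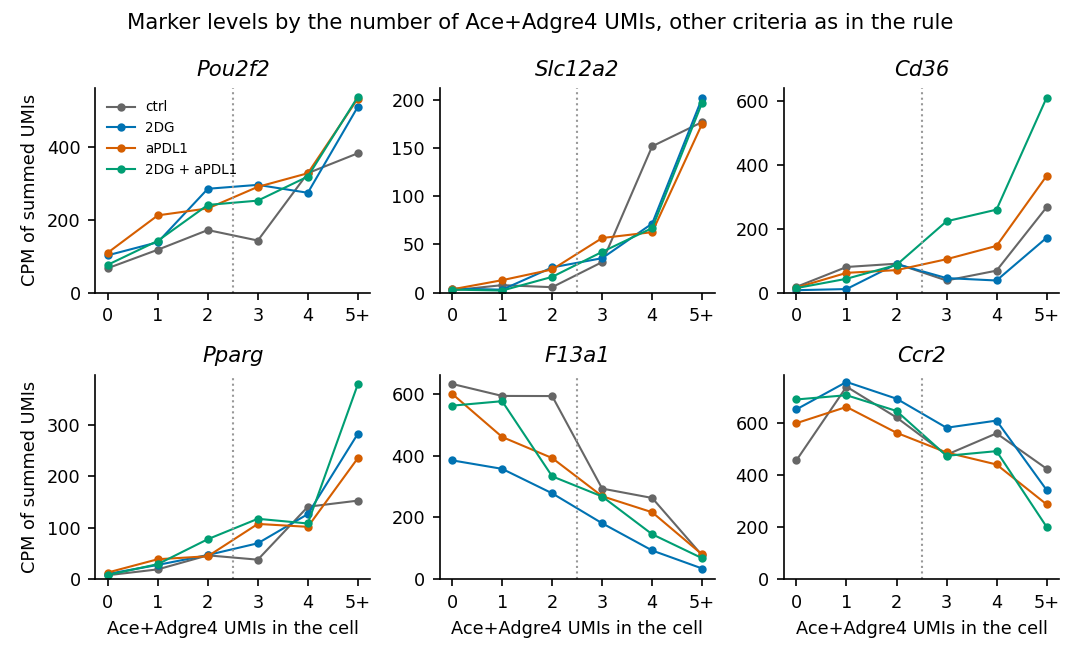
Summed level in CPM of 6 genes against the number of Ace and Adgre4 UMIs in the cell, 1 line per library, for cells that meet the other criteria; the dotted line marks the threshold. Pou2f2, Slc12a2, Cd36 and Pparg are highest at 5 or more UMIs in each library, and F13a1 is lowest there.

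To describe the cells, members were set against other classes of the same libraries. Classical monocytes had at least 3 Ly6c2 UMIs, no Ace or Adgre4 UMI and the other criteria the same (1010 cells). C1q macrophages had at least 10 C1q UMIs and no Ace or Adgre4 UMI (1130 cells). UMIs were summed by class and library and tested with edgeR's quasi-likelihood test with the library as a block, over 4 libraries that each had another treatment. A call needed an adjusted p (Benjamini-Hochberg) under 0.05 and a 2-fold difference. With the block, the p-values measure how much the difference between classes varied over these libraries, not how levels varied between them. Genes used in the gates were left out of the calls. Against classical monocytes 317 of 9489 genes were higher in members (3.34%) and 360 were lower (3.79%). In ctrl 73 of 137 classical monocytes (53.3%) held at least 5 neutrophil UMIs, and without that library 380 genes were higher and 437 lower. In 2DG 5 of 167 did so (2.99%). A list of 8 neutrophil markers summed to 19576, 6470, 547 and 442 CPM in classical monocytes of ctrl, 2DG, aPDL1 and the combination. Leaving out ctrl thus did not remove these transcripts, and their part in the calls was not tested. Without the block 261 genes were higher and 210 lower. Against C1q macrophages 900 of 10145 were higher (8.87%) and 1047 were lower (10.3%).

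The markers fit the label. Of 16 non-classical monocyte markers other than the gate genes, 14 were higher than in classical monocytes, with a median log2 difference of 2.21 against -0.0036 over all genes, and 15 were higher than in C1q macrophages (median 2.99 against -0.011). The list was drawn up with earlier results on these cells known, so its direction is not independent evidence. Pou2f2 (ENSMUSG00000008496, chromosome 7, 25087344 to 25179726, minus strand) was at 302, 451, 459 and 454 CPM in members of ctrl, 2DG, aPDL1 and the combination, against 80.5, 123, 143 and 102 CPM in classical monocytes. Every library of members lay above every library of classical monocytes, and the log2 difference was 1.92 ± 0.09 (SE, n = 4 libraries, adjusted p = 2.1e-06).

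Cd36 (ENSMUSG00000002944, chromosome 5, 17781690 to 17888801, minus strand), a scavenger receptor for oxidised lipoproteins and fatty acids, was at 168, 138, 287 and 489 CPM in members and at 8.51, 5.25, 13 and 11 CPM in classical monocytes. The groups did not overlap, with a log2 difference of 4.84 ± 0.18 (adjusted p = 1e-06). Against C1q macrophages Cd36 was 2.14 ± 0.54 higher on the log2 scale (adjusted p = 0.016), a call lost when the aPDL1 library was left out (2.11, adjusted p = 0.0711). Without the combination it was kept at a smaller value (1.45, adjusted p = 0.00599).

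Nr4a1 (ENSMUSG00000023034, chromosome 15, 101254269 to 101274795, plus strand), on which this lineage depends, was at 452, 456, 328 and 581 CPM in members against 219, 155, 112 and 235 CPM in classical monocytes. It was higher by 1.37 ± 0.10 on the log2 scale (adjusted p = 2e-05). The remaining called markers included Spn, the sialoglycoprotein CD43 (3.08), Treml4, a receptor that binds dying cells (3.27), Cd300e (6.79), the muscle-type enolase gene Eno3 (5.85), Ear2 (3.69), the fatty acid carrier Fabp4 (5.56) and Hes1, a Notch target (2.34). Apoc2 (0.39, adjusted p = 0.15) and Cebpb (0.06, adjusted p = 0.50) did not pass the test against classical monocytes.

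**Figure D3:**
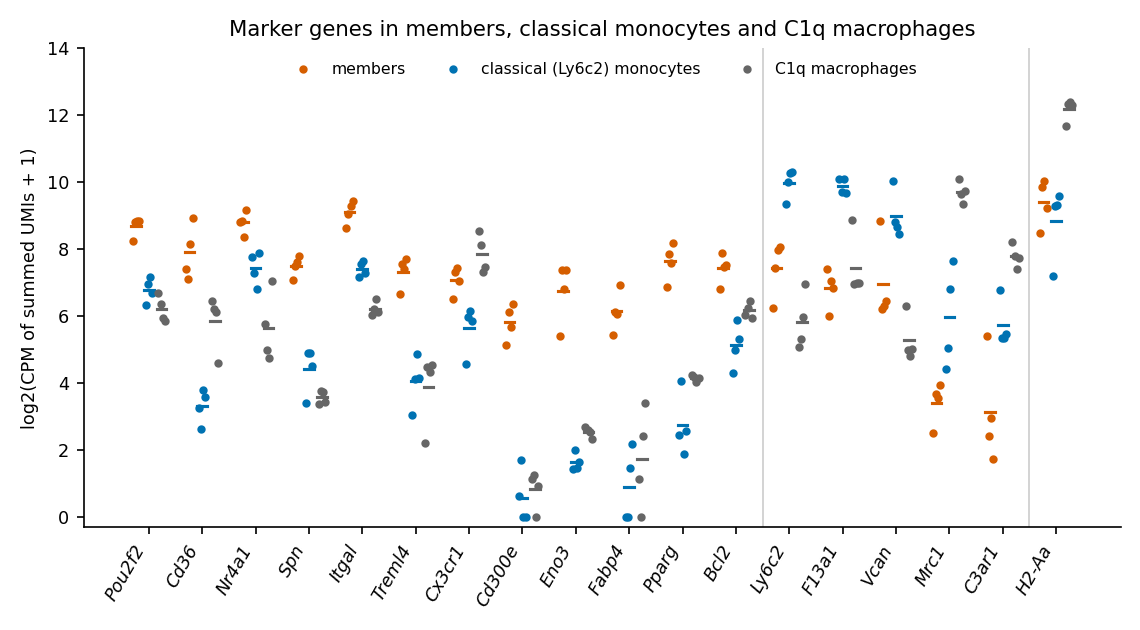
Levels of 18 genes, as log2 of CPM plus 1, in members, classical monocytes and C1q macrophages, with 1 point per library and a bar at the mean of the 4. From Pou2f2 to Bcl2 members lie above classical monocytes in every library, from Ly6c2 to C3ar1 they lie mostly below, and H2-Aa overlaps between the monocyte classes and is highest in C1q macrophages.

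Genes with the largest differences from classical monocytes were of 2 kinds. The 12 highest by fold were Vegfc, Cd300e, Eno3, Slc12a2, Lilra5, Fabp4, Dnah12, Pparg, Tgfbr3, Cd36, S1pr5 and Adgrl3, from 7.03 down to 3.91 on the log2 scale. Vegfc, which encodes a growth factor for lymphatic vessels, was at 38.3, 88.0, 78.9 and 77.1 CPM in members and at 1.13, 0.749, 0 and 0.353 CPM in classical monocytes, whose 4 libraries held 4 Vegfc UMIs in all. It was close to absent from the classical cells and present in members of each library. Slc12a2, the sodium, potassium and chloride cotransporter, was at 130, 162, 138 and 151 CPM against 0.567, 1.5, 1.34 and 5.30 CPM (log2 5.83 ± 0.27, adjusted p = 2.1e-06). Its members' values lay close together over the 4 libraries. S1pr5, a sphingosine phosphate receptor that guides egress of monocytes and NK cells, was at 18.3, 41.1, 33.6 and 47.0 CPM against 0, 2.25, 3.13 and 2.12 CPM (4.18 ± 0.29, adjusted p = 1.2e-05).

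Lower in members were Timp1, Ccl24, Cacnb2, Mmp19, F13a1, Mrc1, Dmkn, Emp1, Dab2, Mmp8, Blnk and Ccl7, from -3.79 to -2.63 on the log2 scale. F13a1 was at 170, 63.9, 132 and 114 CPM in members and 1101, 839, 1091 and 816 CPM in classical monocytes (-3.05 ± 0.14, adjusted p = 2.1e-06). Of 9 classical markers tested, 7 fell below the classical cells, among them Vcan (-2.01), F13a1, Chil3 (-1.21), Fn1 (-2.19), Mgst1 (-1.01) and Cd177 (-1.76). The classical cells were chosen by Ly6c2, so the direction of markers that go with Ly6c2 is not independent evidence. Without the library block Chil3 (adjusted p = 0.326) and Vcan (0.125) were no longer called, and Mgst1 fell under 2-fold without the block (-0.99), without 2DG (-0.91) or without aPDL1 (-0.98). Ccr2, the receptor that draws classical monocytes to CCL2, was at 460, 407, 344 and 292 CPM against 704, 838, 651 and 783 CPM, a log2 difference of -0.99 ± 0.12 (adjusted p = 0.00032) that fell just short of 2-fold. It passed without the ctrl library (-1.12), without aPDL1 (-1.02) and at 3000 UMIs per cell (-1.38). Ccr2 thus stayed at a level above 290 CPM in every library of members.

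Members were not uniform in Ly6c2, the classical marker, which the rule did not use. At least 3 Ly6c2 UMIs were present in 13 members in ctrl, 70 under 2DG, 118 under aPDL1 and 92 in the combination, or 8.02%, 15.7%, 21.1% and 19.9%, and none in 122, 298, 322 and 276. Ly6c2-bearing members had less of the non-classical genes in every library. Cd36 was at 4.8 CPM in them against 237 in members without Ly6c2 in ctrl, 44.7 against 197 under 2DG, 91.1 against 434 under aPDL1, and 49.0 against 773 in the combination. Slc12a2 ran the same way, at 0 against 175, 56.3 against 222, 50.6 against 206 and 33.6 against 223 CPM, while F13a1 was at 358 against 81.8, 194 against 5.6, 330 against 55.5 and 238 against 36.2 CPM. The 13 such members of ctrl held 206913 UMIs in all, so their Cd36 and Slc12a2 values were near the floor. Ly6c2-bearing members were deeper in every library, at medians of 13160, 8058, 7058 and 6828.5 UMIs. Members without Ly6c2 were at 9568.5, 6385.5, 5832.5 and 5610 UMIs. The part of depth was not tested. These subsets were split by a measured value, so the differences are descriptions with no test.

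Of 17 monocyte transcription factors, Nr4a1 and Pou2f2 were higher than in classical monocytes and 2 were lower, beside the 3.34% and 3.79% of all genes given above, among them the macrophage factor Maf (-1.59), with a list median of 0.17. Klf2, a factor of resting endothelium and lymphocytes, differed by 0.67 (adjusted p = 0.0011), under 2-fold.

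Among 15 adhesion and crawling genes 6 were higher and 1 was lower (median 0.42), beside 3.34% and 3.79% of all genes. Itgal, the alpha chain of LFA-1, was at 397, 532, 626 and 692 CPM in members and 145, 187, 202 and 156 CPM in classical monocytes (1.71 ± 0.11, adjusted p = 7.2e-06). Pecam1, Itgax, Itga4, Spn and Cx3cr1 were the others. Pecam1, an endothelial and leukocyte junction molecule, was at 179, 315, 192 and 184 CPM against 21.5, 53.2, 45.6 and 31.1 CPM (2.53 ± 0.14, adjusted p = 3.7e-06). Cx3cr1 was at 91.3, 160, 172 and 132 CPM against 22.7, 62.2, 70.2 and 57.6 CPM (1.42 ± 0.13, adjusted p = 6.6e-05), but C1q macrophages held 375, 278, 160 and 175 CPM and the difference from them did not pass the test (-0.62, adjusted p = 0.13).

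Of 10 receptors for chemokines and lipid mediators, Cx3cr1 and S1pr5 were higher and 3 were lower, among them Ccr1 (-1.9) and C3ar1 (-2.45), a receptor for complement fragment C3a. Of 6 Fc receptor genes only Fcgr1, the high-affinity receptor, was called, as lower (-1.51 ± 0.13, adjusted p = 5.4e-05). Beside both lists, 3.34% of all genes were higher and 3.79% lower. Fcgr4 was at 275, 330, 227 and 307 CPM in members against 117, 117, 127 and 220 CPM, with the adjusted p passed (0.0012) at a log2 difference of 0.999, which is short of 2-fold.

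Scavenger and lipid genes split. Of 16 tested, Cd36, Fabp4, Pparg, Nr1h3, Abcg1 and Mylip were higher and Msr1 and Stab1 were lower, beside 3.34% and 3.79% of all genes. Pparg, the nuclear receptor for fatty acids, was at 117, 233, 194 and 293 CPM against 4.54, 15.7, 2.68 and 4.95 CPM (5.11 ± 0.27, adjusted p = 3.5e-06). Nr1h3 encodes the oxysterol receptor LXR alpha, and Abcg1, a cholesterol exporter, and Mylip are its targets. Abcg1 was at 260, 223, 219 and 227 CPM against 75.4, 82.4, 82.7 and 78.4 CPM (1.55 ± 0.09, adjusted p = 5.3e-06), a narrow range in both classes.

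Survival genes showed 4 higher of 16 and none lower, beside 3.34% and 3.79% of all genes. Bcl2 was at 112, 236, 177 and 183 CPM against 18.7, 30.7, 58.5 and 39.2 CPM (2.26 ± 0.19, adjusted p = 3.7e-05). The other 3 were Bcl2a1a, Bcl2a1b and Bcl2a1d, near-identical copies whose reads cannot be told apart with certainty.

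Several inflammatory genes were lower, beside 3.79% of all genes. Against classical monocytes 8 of 14 chemokine genes were lower and none higher (median -1.27), as were 4 of 7 complement genes (median -1.05), 11 of 29 type I interferon response genes (median -0.83) and 4 of 21 interferon gamma response genes (median -0.37). Isg15, a ubiquitin-like interferon product, was at 58.3, 71.8, 66.5 and 85.0 CPM in members and 176, 258.5, 232 and 528 CPM in classical monocytes (-1.99 ± 0.16, adjusted p = 3.6e-05). Ccl2, the ligand of Ccr2, was at 103, 65.5, 85.6 and 227 CPM against 638, 222, 186 and 498 CPM (-1.63 ± 0.22, adjusted p = 0.00056). C3 was lower as well, at 140, 137, 205 and 133 CPM against 295, 390, 503 and 327 CPM.

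MHC class II genes were lower than in macrophages. None of 9 MHC class II genes was called against classical monocytes. Against C1q macrophages 8 of 9 were lower (median -2.48), beside 10.3% of all genes. Of 8 macrophage markers 7 were lower than in C1q macrophages (median -4.41), Mrc1, the mannose receptor, by 6.13 on the log2 scale. The macrophages were chosen by C1q UMIs, so the direction of markers that go with C1q is not independent evidence. Fcrls had 0 UMIs in 1628 members and 982 in C1q macrophages, so it was at least 347-fold lower against a floor of 3 UMIs over all libraries. The 12 genes with the largest fold above C1q macrophages were S1pr5, Vegfc, Cd300e, Slc12a2, Cyp39a1, Ceacam1, Pglyrp1, Ccdc88c, Nxpe4, Rpl3l, Cyp2ab1 and Eno3, and 5 of these also stood among the 12 above classical monocytes. The 12 lowest were Fcrls, Retnla, Stard13, Cadm1, Gas6, Pdgfc, Vcam1, Mgl2, Col14a1, Igf1, Dcstamp and Pf4, which held between 0 and 35 UMIs over all members.

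Endothelial, fibroblast, epithelial and platelet genes left little trace. Over all members the 6 endothelial markers summed to at most 2.53 CPM in any library, the 6 fibroblast markers to at most 0.949, the 5 epithelial markers to at most 5.06 and the 4 platelet markers to at most 3.50. The endothelial genes Emcn, Cldn5, Egfl7 and Tie1, the fibroblast genes Col3a1, Pdgfra and Lum, Epcam and Ppbp were at 0 UMIs. T and NK markers summed to 7.65, 27.8, 83.7 and 26.8 CPM in ctrl, 2DG, aPDL1 and the combination. B cell markers summed to 14.7, 64.6, 71.6 and 60.2 CPM. A UMI of Trac, Trbc1, Trbc2, Ighm, Ms4a1 or Cd79b was present in 11.7%, 35.7%, 36.9% and 33.8% of members. Type 2 dendritic cell markers, which monocytes also express in part, summed to 165, 185, 262 and 417 CPM, and macrophage markers to 1194, 1194, 1381 and 1290 CPM. Neutrophil markers stood out. They summed to 9128 CPM in ctrl against 449, 769 and 615 CPM, and 94.4% of the S100a8 UMIs of ctrl members lay in 17 cells. At least 5 neutrophil UMIs were present in 30 ctrl members (18.5%), 8 under 2DG (1.80%), 10 under aPDL1 (1.79%) and 12 in the combination (2.60%).

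Most comparisons with ctrl below are therefore also given for a stricter gate, chosen after the data were seen, of at least 5 Ace and Adgre4 UMIs and fewer than 5 neutrophil UMIs. It kept 74, 322, 369 and 297 members, in which neutrophil markers summed to 454, 281, 301 and 216 CPM. The part that depth, neutrophil transcripts and nearness to the threshold have in the remaining differences was not tested.

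The renin-angiotensin genes around Ace were mostly silent. Agt, Agtr1b, Agtr2, Mme and Bdkrb2 had 0 UMIs in members of all 4 libraries. Detected were Lnpep, a membrane aminopeptidase, at 491, 451, 356 and 379 CPM, and Ctsa, a lysosomal carboxypeptidase, at 273, 244, 298 and 271 CPM. None of the 3 genes of this list with enough UMIs passed the test against classical monocytes.

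The letters of 3 binding sites were looked for on both strands of the 300 bases around the start (250 before and 50 after) of the genes most raised in members. AAAGGTCA (an NR4A site) occurs in 1.70% of 27025 genes, ATGCAAAT (the octamer bound by Oct factors) in 1.97% and GAGGAAGT (a PU.1 site) in 3.69%. Of 19 genes named as higher in members against either class, 14 had a RefSeq window and 0 of those held any of the 3. No match says only that these letters are not in these windows. Adgre4, a gate gene and not among the 19, holds the PU.1 letters on the minus strand 41 bases past its start, outside the bases printed above.

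Treatments were compared in 2 pairs each. The 2DG pairs set 2DG against ctrl and the combination against aPDL1 alone. The aPDL1 pairs set aPDL1 against ctrl and the combination against 2DG alone. All comparisons share the same 4 libraries. A gene was counted as higher or lower when both pairs moved at least 1.5-fold the same way, with at least 30 UMIs and 5 cells in the higher library of each pair. By this rule 65 of 7165 genes were higher under 2DG (0.907%), 67 were lower (0.935%), and 174 moved that far in opposite ways in the 2 pairs (2.43%). For aPDL1 113 of 7204 were higher (1.57%), 50 were lower (0.694%) and 171 moved in opposite ways (2.37%). More genes thus disagreed between pairs than agreed. The ctrl library lay at least 1.5-fold beyond all 3 other libraries for 1216 of 8262 genes (14.7%), while the combination did so for 273 (3.3%), aPDL1 for 122 (1.48%) and 2DG for 106 (1.28%). The median gene moved by 0.11 and -0.05 in the 2DG pairs and by 0.12 and -0.03 in the aPDL1 pairs, on the log2 scale.

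MHC class II genes were higher under each single treatment than in ctrl and in the combination, while the order of ctrl and the combination depended on which members were counted. H2-Aa, a chain of the class II molecule, was at 356 CPM in ctrl, 926 under 2DG, 1047 under aPDL1 and 596 in the combination. Over all members the single treatments were thus the highest and ctrl the lowest, with the combination between. H2-Aa was uneven over cells. In ctrl, 2DG, aPDL1 and the combination the top 17, 45, 56 and 47 members held 79.7%, 52.4%, 57.6% and 66% of its UMIs. The median member held 0 CPM in ctrl and the combination and 145 CPM under each single treatment. Members with Adgre4 but no Ace UMI were at 573, 1596, 2136 and 660 CPM. Those with UMIs of both genes were at 334, 831, 878 and 602 CPM. The libraries kept the same order of H2-Aa in both subsets. Ciita, the master switch of these genes, followed at 16.5, 81.3, 93.4 and 33.8 CPM, and Cd74, the invariant chain, at 1363, 2908, 3182 and 1802 CPM. All 8 class II genes that had enough UMIs were higher under 2DG than in ctrl and under aPDL1 than in ctrl (median log2 1.22 and 1.44), and all 8 were lower in the combination than under aPDL1 or under 2DG (-0.82 and -0.66). Of all genes 60.9% were higher under 2DG and 61.7% under aPDL1 than in ctrl. In the combination 43.2% were higher than under aPDL1 and 45.8% than under 2DG. The difference between the pairs was not tested.

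Under the stricter gate H2-Aa was at 501, 842, 976 and 534 CPM, so the single treatments stayed above both other libraries while the distance to ctrl shrank, with medians of 0.50 and 0.69 for 2DG and aPDL1 over ctrl and of -0.95 and -0.71 for the combination over aPDL1 and 2DG. Cd74 was then at 1958, 2727, 3047 and 1604 CPM and H2-Ab1 at 472, 785, 946 and 461 CPM, with ctrl above the combination. Another set held the 34, 105, 135 and 114 members without any UMI of the T, B and neutrophil markers other than S100a8 and S100a9. UMIs of S100a8 and S100a9 were not counted for this set, so its cells may hold them. H2-Aa was there at 729, 790, 962 and 706 CPM and Ciita at 43.9, 85.0, 83.6 and 33.6 CPM. There the medians over ctrl shrank to 0.11 for 2DG and 0.32 for aPDL1, and those of the combination over aPDL1 and 2DG were -0.49 and -0.44. The lower level in the combination than under either single treatment held in all 3 sets of members, and ctrl was below the combination in all members but not throughout the other sets.

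The share of members with an H2-Aa UMI was 34.6% in ctrl, 53.9% under 2DG, 54.7% under aPDL1 and 43.5% in the combination, and 27.2%, 47.2%, 46.1% and 34.4% at 3000 UMIs per cell, which left out 0, 13, 15 and 9 members. In T cells the shares were 11.49%, 13.8%, 14.5% and 13.1%, and at 3000 UMIs 5.95%, 7.14%, 8.15% and 6.86%, at the T cell median depths given above. Members thus exceeded the level of these T cells everywhere. Classical monocytes of the combination did not share the low value: their H2-Aa stood at 145, 623, 632 and 770 CPM. C1q macrophages were at 3286, 5200, 5418 and 5023 CPM.

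**Figure D4:**
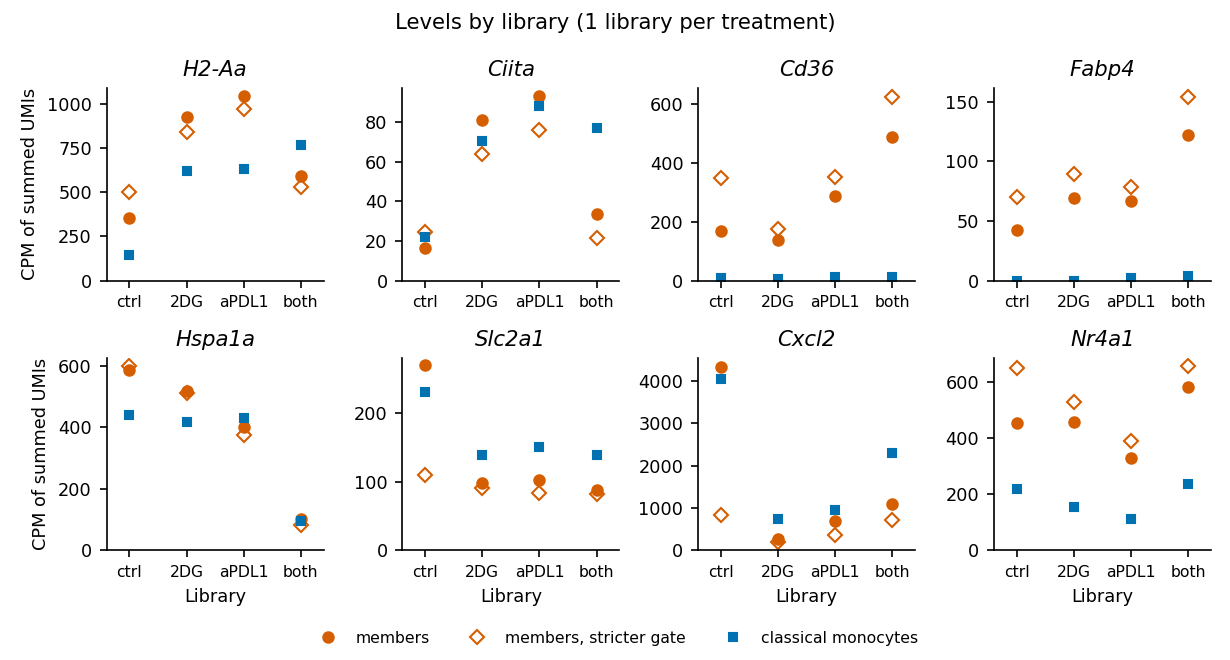
Levels in CPM of 8 genes in the 4 libraries, for members, for members under the stricter gate and for classical monocytes, with 1 point per library. H2-Aa and Ciita are highest in members with a single treatment in both member sets, Cd36 and Fabp4 are highest in members of the combination, Hspa1a is lowest there in both cell classes, and the high Slc2a1 and Cxcl2 of ctrl members shrink under the stricter gate.

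Interferon response genes were lower in ctrl than in the other 3 libraries, against a background of 60.9% and 61.7% of all genes higher under 2DG and under aPDL1 than in ctrl. Of the 21 genes listed as induced by interferon gamma 20 were higher under 2DG than in ctrl and 20 under aPDL1 than in ctrl (median log2 0.90 and 0.95), while 11 of 21 were higher in the combination than under aPDL1 (0.03) and 11 than under 2DG (0.06). Irf1, the early interferon-induced factor, was at 233, 721, 702 and 894 CPM, and at 241, 741, 748 and 941 CPM under the stricter gate. It thus stood more than 2-fold above ctrl in each treated library. The stricter gate gave medians of 1.23 and 1.37 over ctrl, and of 0.06 and -0.02 in the combination over aPDL1 and 2DG.

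Of the type I interferon genes 26 of 27 were higher under 2DG than in ctrl (median 0.98) and 25 of 26 under aPDL1 (0.99). The combination lay above both single treatments, with 24 of 27 genes higher than under aPDL1 (0.27) and 19 of 26 higher than under 2DG (0.28), beside 43.2% and 45.8% of all genes in those pairs. Summed over the list they reached 2276, 3673, 3631 and 4120 CPM in members and 3192, 5147, 5595 and 7353 CPM in classical monocytes. The members' sums under the stricter gate were 2013, 3388, 3450 and 3800 CPM. The low ctrl value was thus common to both monocyte classes.

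Cd274, which encodes PD-L1, was at 498, 449, 430 and 467 CPM over all members, where its largest pair difference was -0.21 on the log2 scale (aPDL1 over ctrl, -0.33 to -0.09). Under the stricter gate it was at 241, 431, 415 and 460 CPM. In members without any UMI of the T, B and neutrophil markers (S100a8 and S100a9 not counted) it was at 186, 497, 445 and 418 CPM. The ctrl value was thus the highest in all members and the lowest in both other sets, and the treated libraries stayed between 415 and 497 CPM throughout. Neutrophils of ctrl held 1312 CPM of Cd274, and their part in the value of all ctrl members was not tested. In classical monocytes Cd274 was at 191, 350, 356 and 559 CPM. Pdcd1lg2 (PD-L2) stood at 19.4, 13.6, 18.6 and 13.9 CPM, and all 4 of its pair intervals held 0; under the stricter gate it was at 4.58, 13.5, 21.6 and 14.4 CPM, the ctrl value from 3 UMIs.

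Glycolysis genes, the pathway 2DG acts on, were lowest in the combination and highest in ctrl. Of 19 genes 1 was higher under 2DG than in ctrl (median log2 -0.81), beside 60.9% of all genes. In the combination 2 were higher than under aPDL1 (-0.30), beside 43.2% of all genes. In the aPDL1 pairs 2 and 2 were higher (-0.70 and -0.17), beside 61.7% and 45.8% of all genes. Eno3 was among those higher than in ctrl under both, at 41.8, 166, 112 and 164 CPM. Under the stricter gate the 2DG medians were -0.39 and -0.30 and the aPDL1 medians -0.40 and -0.15. Slc2a1, the glucose transporter GLUT1, was at 270, 97.5, 102 and 87.7 CPM in all members and at 110, 90.6, 83.7 and 81.4 CPM under the stricter gate. The distance of ctrl from the other libraries was much smaller under that gate.

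The 13 hypoxia response genes had medians of -0.99 and -0.86 for the single treatments over ctrl. Hilpda, a lipid droplet protein induced by low oxygen, was at 283, 8.54, 13.5 and 13.6 CPM and, under the stricter gate, at 39.7, 3.1, 10.2 and 5.2 CPM. The N-glycosylation genes, the other pathway 2DG is known to touch, had medians of 0.14 and -0.01 over 21 genes, beside 0.11 and -0.05 for all genes, and sums of 1763, 1932, 1996 and 1959 CPM.

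**Figure D5:**
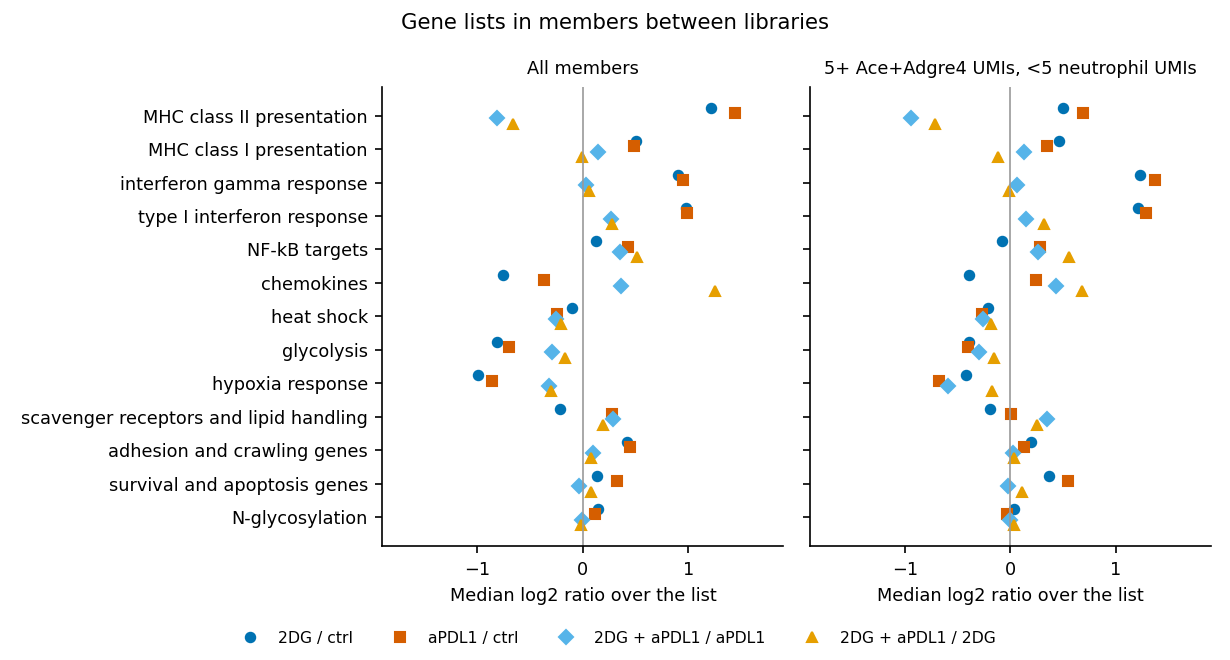
Median log2 ratio over 13 gene lists for the 4 pairs of libraries, for all members (left) and for members under the stricter gate (right). MHC class II lies right of 0 against ctrl and left of 0 for the combination against either single treatment in both panels, while glycolysis and hypoxia lie closer to 0 in the right panel in the pairs with ctrl.

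Cd36 met the size rule for aPDL1 and not for 2DG. It was at 168 CPM in ctrl, 138 under 2DG, 287 under aPDL1 and 489 in the combination. The aPDL1 pairs differed by 0.77 (0.59 to 0.97) and 1.83 (1.67 to 1.99) on the log2 scale, while the 2DG pairs differed by -0.29 (-0.50 to -0.07) and 0.77 (0.65 to 0.88). Under the stricter gate ctrl and aPDL1 met, at 350 and 351 CPM, while 2DG was at 174 and the combination at 623. At 3000 UMIs per cell a Cd36 UMI was present in 20.4%, 15.7%, 24.3% and 35.3% of members, against 26.5%, 21.8%, 34.7% and 42.4% unthinned and at most 0.850% of thinned T cells. The combination was the highest and 2DG the lowest on each of these measures. Cd36 was also uneven within a library: the top 10% of members held 57.3% to 83.2% of its UMIs.

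Fabp4, which carries fatty acids inside the cell, met the size rule in both comparisons at 42.4, 69.3, 66.5 and 122 CPM. Under the stricter gate it was at 70.2, 89.3, 78.8 and 154 CPM. The combination was the highest in both sets of members.

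The genes named for 2DG by size included Nup107, a subunit of the nuclear pore, at 8.83 CPM in ctrl, 57.0 under 2DG, 55.2 under aPDL1 and 145 in the combination. Nup107 was also named for aPDL1, and it had its extremes in the same libraries in classical monocytes, at 4.54, 36.7, 41.6 and 66.1 CPM. Nup107 was at 15.3, 69.3, 63.3 and 148 CPM under the stricter gate, with the same extremes. Zc3hav1l was at 0, 9.81, 11.3 and 44.3 CPM, at least 5.55-fold higher under 2DG and at least 6.4-fold higher under aPDL1 than in ctrl. In T cells Zc3hav1l differed by 1.80 and 0.99 on the log2 scale in the 2DG pairs, so it was higher in cells of another lineage as well. Clec2g, a C-type lectin-related gene, was at 34.2, 88.0, 44.4 and 93.3 CPM, and Plekha6 at 22.4, 43.4, 25 and 46.0 CPM. These 2 were high in both libraries that had 2DG and low in both without it, over all members and under the stricter gate too, at 47.3, 91.1, 51.4 and 105 CPM for Clec2g and 18.3, 47.5, 22.9 and 57.7 CPM for Plekha6. Over all members the log2 ratios were 1.36 (0.95 to 1.80) and 1.07 (0.79 to 1.36) for Clec2g, and 0.94 (0.43 to 1.51) and 0.88 (0.49 to 1.27) for Plekha6. In classical monocytes Clec2g differed by 1.67 and 0.54 and Plekha6 by 0.23 and -1.01. Over all kept cells outside the members Clec2g differed by 0.76 and 0.62 and Plekha6 by -1.92 and -0.84. Scnn1a, Scpep1os, Agmo and Mcmdc2 completed the 8.

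Lower under 2DG were Retnlg, Htra3, Myo1d, Nab2, Mmp14, Rai14, Sh3pxd2b and Spint1. Retnlg, a neutrophil gene, was at 571, 6.96, 39.3 and 4.30 CPM, and at 3.05, 0.436, 2.45 and 0 CPM under the stricter gate. Rai14, which encodes an actin-binding ankyrin protein, was at 173, 34.8, 37.4 and 15.2 CPM, with log2 ratios in the 2DG pairs of -2.31 (-2.64 to -1.99) and -1.29 (-1.81 to -0.81). The stricter gate gave 121, 30.5, 31.8 and 18.0 CPM for Rai14. Rai14 was named for aPDL1 too. Of the 67 genes lower under 2DG only 9 were also lower under the stricter gate, and 37 of the 65 higher ones were also higher. At 3000 UMIs per cell 37 genes were higher and 9 lower, of which 14 were among the 65 and 2 among the 67.

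For aPDL1 the 8 named as higher were Il6, Zc3hav1l, Tmtc2, Stxbp6, Nup107, Trim34a, Aff3 and Acat2. Stxbp6, which encodes a regulator of vesicle fusion, was at 30.03 CPM in ctrl, 108 under 2DG, 212 under aPDL1 and 290 in the combination. It was higher under aPDL1 by 2.81 (2.41 to 3.26) and 1.43 (1.25 to 1.61) on the log2 scale. Stxbp6 was at 38.2, 103, 198 and 283 CPM under the stricter gate. Both libraries that had aPDL1 thus exceeded both without it. Il6, the inflammatory cytokine, was at 1.18 CPM in ctrl (2 UMIs), 1.9 under 2DG (6 UMIs), 12.6 under aPDL1 and 28.8 in the combination. Its log2 ratios were 3.12 (1.49 to 6.51) and 3.82 (2.74 to 5.41), and under the stricter gate Il6 was at 3.05, 2.18, 10.2 and 25.8 CPM. In members without any UMI of the T, B and neutrophil markers (S100a8 and S100a9 not counted) Il6 was at 3.38, 1.57, 10.3 and 4.81 CPM. That set held 296129, 635438, 777351 and 624241 UMIs in all in ctrl, 2DG, aPDL1 and the combination. Its Il6 values thus rest on few UMIs, and no order of the libraries is read from them.

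Lower under aPDL1 were Mertk, Hist1h4i, Igfbp6, Hist1h1d, F11r, Rai14, Cysltr1 and Adam19. Mertk, a receptor for the uptake of dying cells, was at 30.6, 9.81, 5.65 and 2.65 CPM, from 52 UMIs in ctrl to 8 in the combination. F11r, a junction molecule, was at 126, 57.6, 37.9 and 24.2 CPM, and Cysltr1, a leukotriene receptor, at 60.6, 27.8, 17.2 and 12.2 CPM. All 3 had ctrl highest and the combination lowest. With the stricter gate Mertk was at 22.9, 4.36, 5.31 and 0 CPM, F11r at 113, 57.5, 32.7 and 27.8 CPM, and Cysltr1 at 56.5, 20.5, 14.7 and 7.21 CPM, again with ctrl highest. Adam19 turned to 2.74 for aPDL1 over ctrl under the stricter gate, and Hist1h1d to 2.01 when thinned. Under the stricter gate 55 of the 113 higher and 15 of the 50 lower genes were still counted, and at 3000 UMIs per cell 75 were higher and 8 lower, of which 29 were among the 113 and 2 among the 50. Some of the named genes also met the size rule in other cells. Of the 8 higher under 2DG 2 did so in classical monocytes, 1 in T cells and 4 in all kept cells outside the members. Of the 8 higher under aPDL1 these counts were 3, 1 and 3. For the 8 lower genes they were 1, 3 and 4 under 2DG, and 3, 0 and 0 under aPDL1. The 2 treatments shared 20 higher genes (30.8% of those for 2DG, 17.7% of those for aPDL1) and 20 lower genes (29.9% and 40%), which their common libraries affect.

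Heat shock genes Hspa1a and Hspa1b were low in the combination. Hspa1a was at 586, 517, 400 and 104 CPM in members, at 599, 512, 376 and 81.9 CPM under the stricter gate, and at 441, 418, 430 and 94.7 CPM in classical monocytes. A Hspa1a UMI was found in 66.7%, 68.5%, 59.7% and 26.2% of members (53.7%, 56.9%, 50.7% and 15.7% at 3000 UMIs) and in 43.9%, 26.6%, 14% and 2.60% of T cells (32.9%, 18.3%, 9.01% and 1.63%). The combination was thus the lowest in every class given. Hspa1b, a near-identical copy whose reads cannot be told apart with certainty, was at 619, 536, 431 and 74.8 CPM. Over all 12 heat shock genes the medians lay between -0.26 and -0.10.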

How the data were processed

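The authors deposited 1 matrix per library of unnormalized whole-number UMI counts, per the file headers, for 32285 genes. The matrices' own headers give Cell Ranger version 7.0.0, while the submitters' processing notes give version 3.1.0 with mm10; neither states how intronic reads were treated. The rule for members, the classes compared and the gene lists were chosen with earlier results of these data known. Summed counts were tested with edgeR 4.0.16 (quasi-likelihood, TMM, library as a block) in R 4.3.3, after its filter on low counts, and with DESeq2 1.42.0 as an alternative. The block is the library, from which both classes come. On simulated counts for the real genes edgeR recovered 96.23% of 106 genes changed by 1.5 on the log2 scale against classical monocytes, with 2 false calls among 9499 genes, and 96.36% of 110 against C1q macrophages, with 5 among 10156. The simulated counts had no library or treatment effect and took the trended dispersion of the fit, and all changes set were larger than 2-fold. Recovery and false calls at that setting do not describe the real libraries, which differ from each other. Treatment ratios are log2 of CPM with 0.5 added to each count. Doublets were scored with Scrublet in scanpy 1.11.5 at 0.8% per 1000 barcodes and kept. Genes named between classes were the 12 per direction with the largest fold among those called, with 1 sign in all 4 libraries and at least 20 CPM in the higher class. For treatments they were up to 8 per direction ranked by the smaller ratio. A set of markers was always given; some genes of the lists are not reported here. Other genes were named as members of a list, some after their values were seen. Alternatives changed the gate, the depth, the filter, the normalization and the libraries used.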

Additional observations from a re-analysis of the deposited data

Results flagged for a closer look

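The MHC class II genes moved in opposite ways in the 2 pairs of each treatment. In members the median log2 ratio over 8 genes was 1.22 for 2DG over ctrl and -0.82 for the combination over aPDL1, and 1.44 for aPDL1 over ctrl and -0.66 for the combination over 2DG. Every gene of the 8 was higher in the first pair and lower in the second of each treatment. In members without any UMI of the T, B and neutrophil markers (S100a8 and S100a9 not counted) the 4 medians were 0.11, -0.49, 0.32 and -0.44. The difference between the pairs was not tested, since each treatment has 1 library.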

How the results depend on the processing

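Member shares moved with the gate: at 2 or more Ace and Adgre4 UMIs they were 2.39%, 6.91%, 8.02% and 6.31% in ctrl, 2DG, aPDL1 and the combination, at 5 or more 1.001%, 4.10%, 4.17% and 3.31%, and thinned 0.719%, 3.54%, 3.80% and 3.09%. Requiring 1000 detected genes gave 2.11% in ctrl and 6.75% in aPDL1, and leaving out neutrophil-marker cells gave 2.63% in ctrl.

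The library is the replicate block of the class tests. Without it, 261 genes were higher and 210 lower than in classical monocytes, of which 202 were among the 360 lower with the block; against C1q macrophages the counts were 853 and 1015. Chil3 (adjusted p = 0.326), Mmp8 (0.128) and Vcan (0.125) were no longer called without the block, nor Mgst1, which fell under 2-fold (-0.99). Leaving out 1 library gave 286 to 380 higher and 311 to 437 lower against classical monocytes, and 839 to 1000 and 894 to 1185 against C1q macrophages. With cells thinned to 3000 UMIs and gated again, 397 were higher and 403 lower than in classical monocytes. Of those, 210 were among the 317 higher and 181 among the 360 lower. Against C1q macrophages 798 were then higher and 887 lower, of which 630 were among the 900 and 540 among the 1047. No paired analysis was possible because each treatment has 1 library, as far as the treatment comparisons go.

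The 65 genes higher and 67 lower under 2DG became 161 and 151 at a minimum of 10 UMIs, 38 and 19 at 100 UMIs, and 37 and 9 when thinned. The 113 and 50 under aPDL1 became 224 and 141, 53 and 18, and 75 and 8. The lower counts for 2DG and aPDL1 were 41 and 33 at 5 or more Ace and Adgre4 UMIs, and 37 and 32 under the stricter gate. They were 33 and 20 in members with no UMI of the T, B or neutrophil lists (S100a8 and S100a9 not counted). These change the UMIs available as well as the cells.

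Signs changed for the chemokine median of 2DG over ctrl when thinned (0.019). Agmo changed sign in the combination over aPDL1 without cells holding lymphocyte or neutrophil UMIs, S100a8 and S100a9 not counted (-0.45). Aff3 did so in the combination over 2DG without doublets (-0.36) and without Ly6c2-bearing cells (-0.28). Adam19 did so in aPDL1 over ctrl with fewer than 5 neutrophil UMIs (1.72) and under the stricter gate (2.74). Hist1h1d did so in aPDL1 over ctrl when thinned (2.01). The ratios of Adam19 and Hist1h1d carry 0.5 added to low ctrl counts, so their signs are not read as reversals. The cause of the changes was not tested. Thinning, the gate on neutrophil UMIs and the stricter gate were added to the treatment comparisons after the data were seen.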

Other observations

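Some genes, singled out after their values were seen, differed between members of the 4 libraries. Klf2 was at 739 CPM in ctrl, 684 under 2DG, 648 under aPDL1 and 1270 in the combination, and at 846, 735, 683 and 1333 CPM under the stricter gate. Tnip3, which encodes an inhibitor of NF-kB signalling, was at 58.9, 66.5, 122 and 318 CPM, and at 61.1, 69.7, 114 and 309 CPM under that gate. Id3, an inhibitor of basic helix-loop-helix factors, was at 43.6, 79.7, 71.0 and 154 CPM, and at 58.0, 86.7, 75.9 and 176 CPM under that gate. All 3 were highest in the combination in both sets. Cxcl2, a chemokine that neutrophils also make, was at 4326, 260, 691 and 1098 CPM in all members and at 840, 207, 358 and 728 CPM under the stricter gate, highest in ctrl in both.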
